A study of Homo sapiens with 6 samples.

Results

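Cystine uptake and glutathione metabolism were followed through 10 genes, picked by name for their roles, with earlier results of these data known. They are the cystine transporter SLC7A11, the synthesis genes GCLC, GCLM and GSS, and the reductase gene GSR. The others are the breakdown genes CHAC1, CHAC2 and GGCT, the γ-glutamyltransferase family gene GGT7 and the transferase gene GSTP1. All 10 were found by symbol among the 63643 rows of the count table, and all 10 passed the filter on low counts that left 23109 genes for testing. Polyadenylated RNA was sequenced from HEK293T, a long-established cell line derived from human embryonic kidney, in which the glyoxalase gene GLO1 is deleted per the labels. Every library, Control included, comes from these ΔGLO1 cells. The MGO group (3 libraries) received 60 µM methylglyoxal (MGO), a reactive by-product of glycolysis, for 4 h, and the Control group (3 libraries) was left untreated. The study asked whether MGO elicits the transcriptional programme of the integrated stress response (ISR), in which the transcription factor ATF4 accumulates. The labels do not say whether the line is 1 clone or whether the replicates are separate cultures. The p-values therefore reflect only how these libraries differ, which may be technical.

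Glutathione is a tripeptide of glutamate, cysteine and glycine and the main soluble thiol of animal cells. Cystine enters through the antiporter formed by SLC7A11 and SLC3A2 and is reduced to cysteine, glutamate-cysteine ligase (GCLC with its modifier GCLM) makes γ-glutamylcysteine, and GSS adds glycine. MGO reacts spontaneously with glutathione to form the hemithioacetal that GLO1 uses as its substrate. SLC7A11 and CHAC1 are textbook targets of ATF4, and SLC7A11, GCLC, GCLM and GSR are textbook targets of the oxidative stress factor NRF2, the product of NFE2L2.

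Levels are given as CPM, counts scaled to a common library total with the TMM method, and raw totals lay between 117427883 and 157639431 per library. The test was edgeR's quasi-likelihood test between the groups, with p-values adjusted over all 23109 genes by the Benjamini-Hochberg method and a threshold of 0.05. Across the whole table this test called 79.3% of genes, 38.8% raised and 40.5% lowered, so a call alone sets no gene apart. Over 20 equal-sized bins of transcript length, the median log2 fold change of all genes was highest between 811 and 996 nt, at 0.75, and fell from there to −1.78 in the longest bin, of 6512 nt and above. In the 4 bins of shorter transcripts it lay between 0.27 and 0.59, in no order of length. The labels name no spike-in RNA, so all changes are relative to the scaling. Scaling by library size alone shifted the median log2 fold change of the table by −0.52, and upper quartile scaling shifted it by 0.17. GLO1 itself had 97.3 to 106 CPM in MGO and 36.3 to 37.9 CPM in Control libraries. Which part of GLO1 is deleted is not stated in the labels, so its reads are no check of the deletion, and both groups carry it. The 6 markers taken for HEK293T cells (VIM, LIN28B, NEFL, INA, PAX2 and NEFM) were all detected and tested. VIM was the highest, at 377 ± 16.0 CPM in Control and 699 ± 36.8 in MGO (SD, n = 3), and NEFM the lowest, at 1.46 ± 0.105 and 0.555 ± 0.0956 CPM. VIM was raised by MGO and the other 5 were lowered, by between 0.46 for INA and 1.94 for PAX2 on the log2 scale. For other cell types, sums were taken over the markers that passed the filter. The 2 of 5 blood cell markers that passed summed to at most 0.80 CPM in any library. The 2 of 5 fibroblast markers that passed summed to 5.13 to 5.74 CPM in MGO and 14.1 to 15.3 in Control. The 6 of 8 keratin-type epithelial markers that passed summed to 1691 to 1933 CPM in MGO and 618 to 650 in Control. KRT8 was the highest of them, at 328 ± 7.27 CPM in Control and 981 ± 67.8 in MGO. On this list 5 markers were raised, whereas CDH1 was lowered, from 7.09 to 2.40 CPM (log2 fold change −1.56). KRT5 and KRT14, which did not pass, had no more than 5 counts in a library. The part of these markers in the results was not tested. In bulk RNA, fewer cells of a type and less RNA per cell cannot be told apart.

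Of the 10 genes, 5 were raised by MGO (GSS, CHAC2, GGCT, GGT7 and GSTP1), 4 were lowered (SLC7A11, GCLC, GCLM and CHAC1) and GSR did not pass the threshold. The MGO and Control libraries did not overlap for 9 of the 10, where 81.5% of all tested genes did not overlap. Both shares are close to the background, so the direction and size of each gene carry the description. The changes ran from a 10.4-fold fall of SLC7A11 to a 3.63-fold rise of GSTP1. The 10 genes had a median log2 fold change of 0.29, beside −0.02 over all tested genes. Library size alone turned the median of the 10 genes to −0.24, beside −0.55 over all tested genes.

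**Figure D1:**
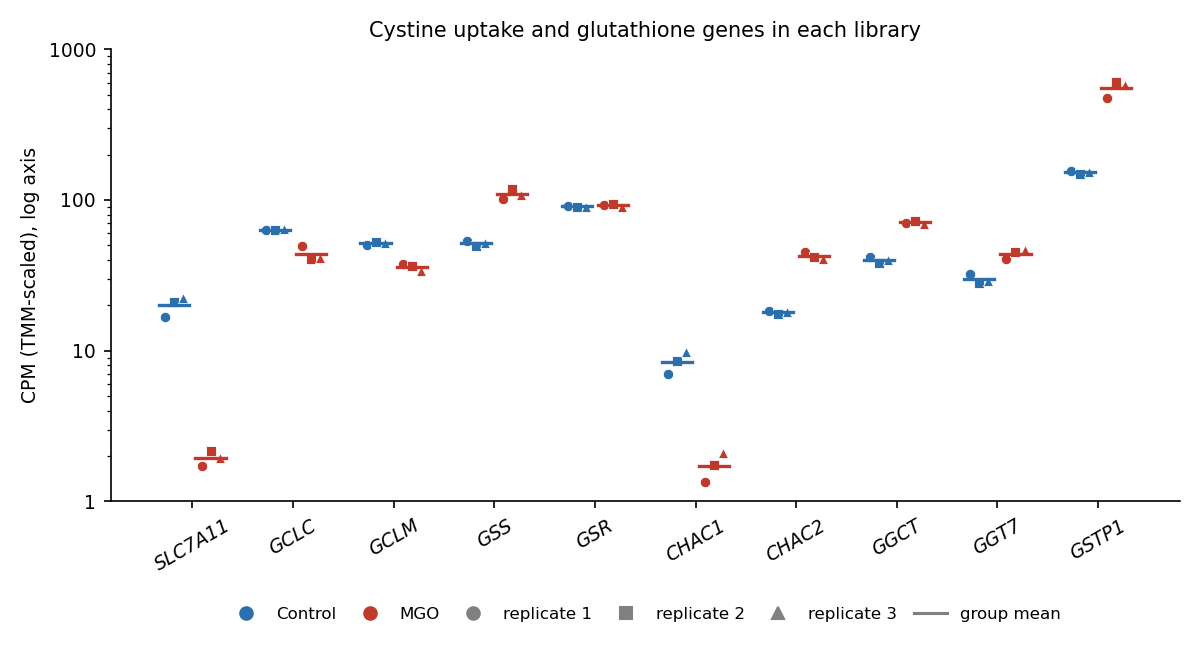
CPM (log axis) of each of the 10 genes in the 3 Control and 3 MGO libraries; symbols mark replicate numbers and bars the group means. SLC7A11 and CHAC1 drop to about 1 to 2 CPM in MGO, GSTP1 rises to between 476 and 604 CPM, and only for GSR do the groups overlap.

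SLC7A11 (ENSG00000151012, chromosome 4, 138164097 to 138242349, minus strand, GRCh38) encodes the light chain of the cystine-glutamate antiporter. Its raw counts, in order of replicate number, were 188, 243 and 224 for MGO and 2403, 3984 and 3877 for Control. On the CPM scale these were 1.71, 2.15 and 1.95 in MGO and 16.9, 21.1 and 22.3 in Control. Every MGO library lay far below every Control library. The difference between the groups was −3.37 on the log2 scale (SE 0.12, edgeR adjusted p = 1.99e-10). SLC7A11 has 1 coding transcript in the GENCODE basic set, of 9645 nt, which places it in the longest bin. With the trend on transcript length removed from each library its change was −1.72 (SE 0.12, adjusted p = 2.36e-08), so the fall kept its call at a smaller size.

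SLC3A2 encodes the heavy chain that carries the SLC7A11 protein, and other amino acid transporters, to the cell surface. It stood at 545, 574 and 588 CPM in MGO and 79.3, 75.8 and 81.2 CPM in Control libraries. It rose by 2.85 on the log2 scale (SE 0.07, edgeR adjusted p = 1.38e-11), while its partner fell. The number of SLC7A11 reads per SLC3A2 read, which needs no scaling between libraries, was 0.213, 0.278 and 0.275 in Control and 0.00314, 0.00375 and 0.00332 in MGO. The mean log2 ratio thus differed by −6.22 between the groups, against an SD of 0.13 in MGO and 0.22 in Control (n = 3 each). Typical transcripts of SLC7A11 and SLC3A2 have 9645 and 2038.5 nt, and the ratio keeps any trend on length. With that trend removed the changes were −1.72 for SLC7A11 and 2.72 for SLC3A2. With 3 libraries a group an exact permutation test cannot go below 0.10, so none is given for the ratios.

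SLC7A11-AS1, an antisense gene that overlaps 14081 bp of the SLC7A11 span on the other strand, was read with 17, 41 and 39 counts in Control and 0, 1 and 0 counts in MGO libraries. This gene was looked at after its values were seen. The library kit keeps strand, but no source used here gives the strand setting of the counting, so reads of the pair may not be told apart. The antisense row held far fewer counts than the SLC7A11 row in every library.

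GCLC (ENSG00000001084, chromosome 6, 53497341 to 53616970) encodes the catalytic subunit of glutamate-cysteine ligase, the rate-limiting step of glutathione synthesis. It stood at 49.7, 40.8 and 41.2 CPM in MGO and at 63.7, 63.3 and 63.9 CPM in Control libraries. GCLM (ENSG00000023909, chromosome 1, 93885205 to 93909456), the modifier subunit, had 37.6, 36.5 and 34.0 CPM in MGO and 50.3, 52.9 and 52.0 in Control libraries. Neither gene overlapped between the groups, and MGO replicate 1 was the highest MGO library for both. GCLC fell by 0.53 on the log2 scale (SE 0.08, edgeR adjusted p = 4.32e-05) and GCLM fell by 0.52 (SE 0.06, adjusted p = 8.07e-06). Both falls were about 1.4-fold, 1.45 for GCLC and 1.44 for GCLM. AL033397.1 shares 55682 bp of the GCLC span on the same strand and was not matched to a row of the count table. GCLC-AS1 shares 3735 bp on the other strand and had 71 to 108 counts per library. Both were looked at after the values were seen, and the part of shared reads in the GCLC row was not tested.

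The balance of the ligase subunits did not separate the groups. GCLC had 1.32, 1.12 and 1.21 reads per GCLM read in MGO libraries and 1.27, 1.195 and 1.23 in Control libraries. The mean log2 ratio differed by −0.02, with an SD of 0.12 in MGO and 0.04 in Control (n = 3 each), and the MGO values spanned the Control values. The typical transcripts of GCLC and GCLM have 3530.5 and 3932.5 nt. All tested genes in the length bins of GCLC and GCLM had median log2 fold changes of −0.41 and −0.65. With the length trend removed, the call for GCLC was lost (−0.01, SE 0.07, adjusted p = 0.937) and GCLM turned to a small rise (0.15, SE 0.06, adjusted p = 0.0253).

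**Figure D2:**
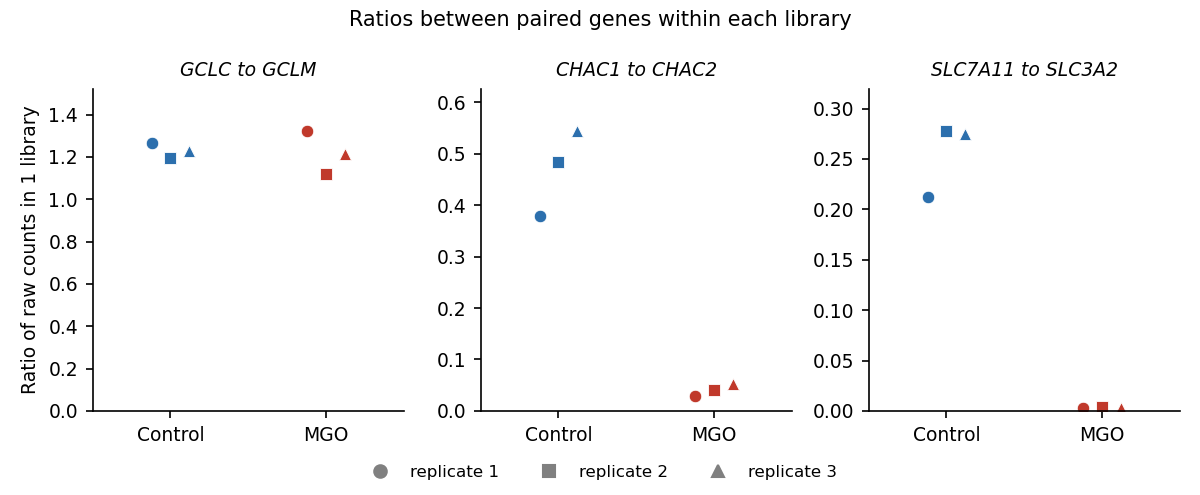
Raw read ratios within each library, which no scaling between libraries can move, for GCLC to GCLM, CHAC1 to CHAC2 and SLC7A11 to SLC3A2; each panel starts at 0 and symbols mark replicate numbers. The ligase ratio stays between 1.12 and 1.32 in all 6 libraries, while the other ratios are lower in every MGO library than in any Control library. No ratio is corrected for transcript length.

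GSS (ENSG00000100983, chromosome 20, 34928433 to 34956027) encodes glutathione synthetase, which adds glycine in the last step. Its levels were 101, 119 and 108 CPM in MGO libraries and 53.4, 49.9 and 51.5 CPM in Control libraries. All MGO libraries lay above all Control libraries. GSS rose by 1.09 (SE 0.07, edgeR adjusted p = 1.95e-08), a 2.12-fold rise, and its change was 0.91 (SE 0.06) with the length trend removed. Under TMM scaling the synthesis genes therefore divided, with the ligase subunits lowered and the synthetase raised. With the length trend removed neither ligase subunit was lowered (GCLC −0.01, not past the threshold, and GCLM 0.15). GSS had 2.04, 2.91 and 2.62 reads per GCLC read in MGO libraries and 0.840, 0.788 and 0.805 in Control libraries. Typical transcripts of GSS and GCLC have 1929.5 and 3530.5 nt, and this ratio keeps any trend on length.

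GSR encodes glutathione reductase, which regenerates reduced glutathione with NADPH. It stood at 92.6, 93.5 and 90.5 CPM in MGO libraries and at 90.9, 90.5 and 90.3 CPM in Control libraries. The groups overlapped, and the log2 fold change was 0.03 (SE 0.06, edgeR adjusted p = 0.679). The direction of GSR is set by the scaling: it was −0.50 under library size alone (adjusted p = 1.03e-05), 0.20 under upper quartile scaling (adjusted p = 0.00637) and −0.28 once the length trend was removed (adjusted p = 0.00036).

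The breakdown genes include a pair of related γ-glutamylcyclotransferases that act on glutathione itself, the stress-induced CHAC1 and the constitutive CHAC2. They moved in opposite directions. CHAC1 (ENSG00000128965, chromosome 15, 40952962 to 40956519) had 149, 197 and 240 raw counts in MGO and 993, 1609 and 1709 in Control libraries, or 1.35, 1.74 and 2.09 CPM against 6.97, 8.51 and 9.84. All MGO libraries lay below all Control libraries, although CHAC1 had the widest relative spread of the 10 genes, with a coefficient of variation of 21.4% in MGO and 17.0% in Control. The log2 fold change was −2.28 (SE 0.16, edgeR adjusted p = 3.78e-08), a 4.87-fold fall.

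CHAC2 (ENSG00000143942, chromosome 2, 53767792 to 53775196) stood at 45.3, 42.1 and 40.7 CPM in MGO and at 18.4, 17.6 and 18.1 CPM in Control libraries. The groups did not overlap, and CHAC2 rose by 1.24 (SE 0.07, edgeR adjusted p = 3.38e-09). The transcripts of CHAC1 and CHAC2 are of like length, 1425 and 1321 nt, and both genes fall in a bin whose genes had a median log2 fold change of 0.59. CHAC1 thus lay 2.87 below the median of its bin and CHAC2 0.66 above it. CHAC1 had 0.0299, 0.0414 and 0.0515 reads per CHAC2 read in MGO libraries and 0.379, 0.483 and 0.544 in Control libraries, a difference of −3.54 in the mean log2 ratio. CHAC2 lies wholly inside the span of ASB3, which runs on the other strand and had a log2 fold change of 0.56 (SE 0.07). ASB3 was looked at after its values were seen, and the part of its reads in the CHAC2 row was not tested.

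GGCT (ENSG00000006625, chromosome 7, 30496621 to 30504844) encodes the cyclotransferase that acts on γ-glutamyl amino acids further along the cycle. It had 70.3, 72.7 and 69.7 CPM in MGO and 42.1, 38.2 and 40.1 CPM in Control libraries. The MGO libraries were all higher, and GGCT rose by 0.82 (SE 0.06, edgeR adjusted p = 8.51e-08). GGCT sat near the middle of genes of its length, whose median was 0.75. AC005154.5, looked at after its values were seen, overlaps 7768 bp of the GGCT span on the same strand. It had at most 3 counts in any library, and the part of shared reads in the GGCT row was not tested.

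GGT7 (ENSG00000131067, chromosome 20, 34844720 to 34872860) is a member of the γ-glutamyltransferase family. It stood at 40.8, 44.9 and 46.5 CPM in MGO and at 32.5, 28.3 and 29.1 CPM in Control libraries, with no overlap. GGT7 rose by 0.56 (SE 0.08, edgeR adjusted p = 2.23e-05). Library size alone took this call away (0.03, SE 0.08, adjusted p = 0.739). GGT7 and GSS lie on the same strand of chromosome 20 with ACSS2, a cytosolic acetyl-CoA synthetase gene, between them on the other strand. ACSS2, looked at after its values were seen, had a log2 fold change of 0.41 (SE 0.07) and overlaps the start of GGT7 by 715 bp.

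GSTP1 (ENSG00000084207, chromosome 11, 67583595 to 67586656) encodes the pi class glutathione transferase, which conjugates glutathione to electrophiles. It was the most abundant of the 10 genes in every library, at 476, 604 and 579 CPM in MGO and 155, 149 and 153 CPM in Control libraries. All MGO libraries were higher, with replicate 1 the lowest of them. GSTP1 rose by 1.86 (SE 0.09, edgeR adjusted p = 1.01e-09), and by 1.61 (SE 0.08) with the length trend removed. Genes of its length had a median of 0.59 and an upper quartile of 1.40, and GSTP1 lay above both.

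MGO replicate 1 held the lowest MGO level of GSS, GGT7, GSTP1, SLC7A11 and CHAC1 and the highest of GCLC, GCLM and CHAC2. In the Control group, replicate 1 was the lowest library for SLC7A11 and CHAC1. Leaving out any 1 library kept the count at 5 raised and 4 lowered genes.

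Per kilobase of typical transcript, which allows levels of different genes to be set side by side, the Control libraries ranked GSTP1 first at 206 CPM per kb. GSR followed at 62.6, GGCT at 42.1 and GSS at 26.7 CPM per kb. GCLC stood at 18.0, CHAC2 at 13.6, GCLM at 13.2 and GGT7 at 11.3 CPM per kb, and CHAC1 (5.92) and SLC7A11 (2.08) were lowest. In MGO libraries GSTP1 reached 746 CPM per kb, and GGCT (74.3), GSR (63.8) and GSS (56.7) came next. CHAC2 (32.3), GGT7 (16.7), GCLC (12.4) and GCLM (9.16) followed. SLC7A11 stayed last, at 0.201 CPM per kb, below CHAC1 at 1.21. Levels per kb rest on the median length of annotated transcripts, since the transcripts made in these cells were not measured.

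**Figure D3:**
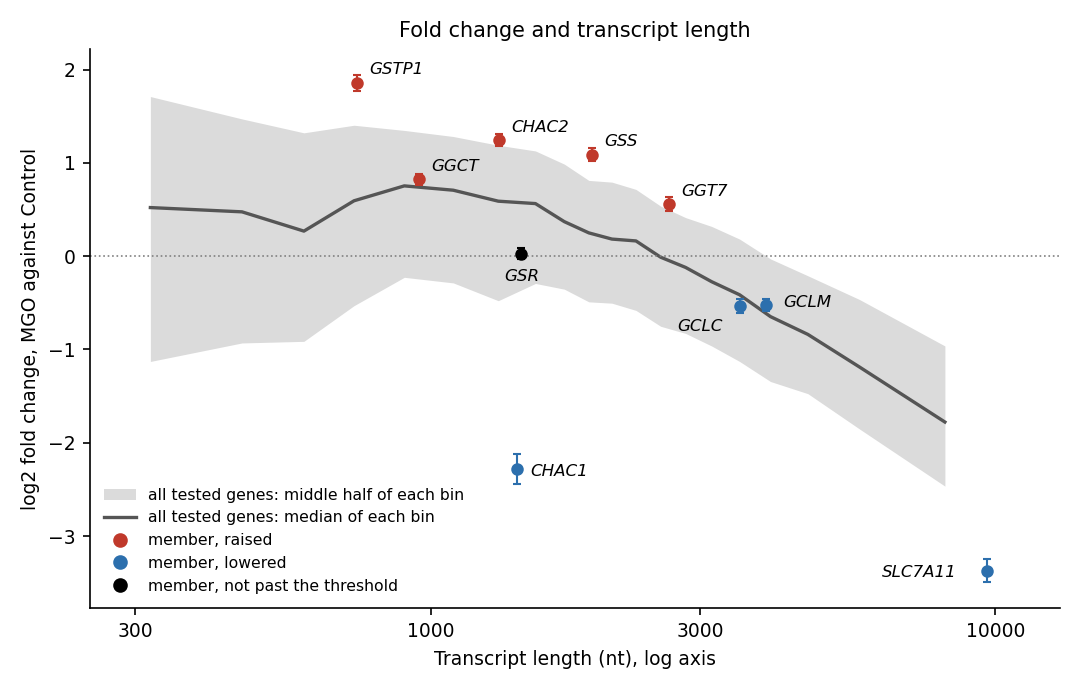
Log2 fold change of MGO against Control (bars: SE) against transcript length (log axis) for the 10 genes, over the median and the band between the lower and upper quartiles of all tested genes in 20 length bins, drawn at the geometric centre of each bin except the outermost. GCLC, GCLM and GGCT lie near the line for all genes, while CHAC1 and SLC7A11 lie below and GSTP1, CHAC2, GSS and GGT7 above the shaded band.

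Removing the trend on transcript length left 6 of the 10 genes raised and 3 lowered. GSS, CHAC2, GGCT, GGT7 and GSTP1 stayed raised, with changes from 0.53 for GGCT to 1.61 for GSTP1, and GCLM joined them. SLC7A11 and CHAC1 stayed lowered, and CHAC1 moved further from 0, to −2.59 (SE 0.16). Library size alone left 4 raised and 5 lowered.

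**Figure D4:**
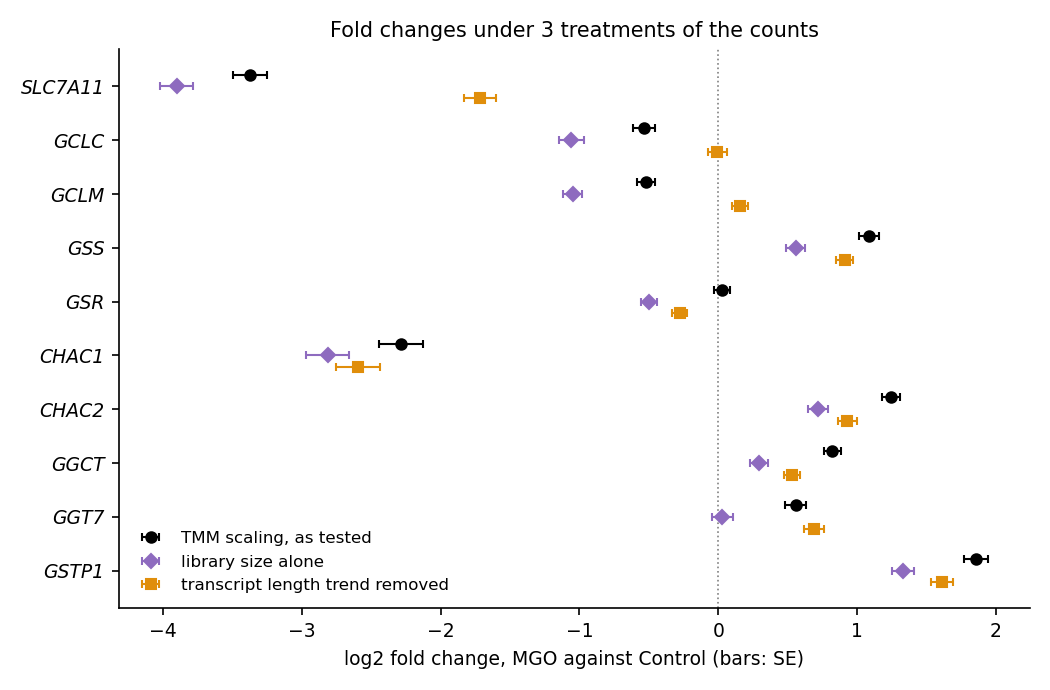
Log2 fold changes (bars: SE) of the 10 genes with TMM scaling, with library size alone and with the transcript length trend removed. SLC7A11 and CHAC1 stay below 0 and GSS, CHAC2, GGCT and GSTP1 stay above 0 under all 3, whereas GCLM and GSR cross 0.

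Sequence before the start site was searched for short motifs of the factors named above, since SLC7A11 and CHAC1 fell while ATF4 and NFE2L2 RNA rose. RefSeq start sites (build GRCh38.p14) were used for 6 of the 10 genes: GCLC, GCLM, CHAC1, CHAC2, GSTP1 and GGT7. SLC7A11, GSS, GSR and GGCT were not searched, so nothing is said of their sequence. The 250 bases before each start were searched on both strands for the ATF4-C/EBP composite element (TGATGNAAN), the core of the antioxidant response element bound by NRF2 (TGACNNNGC) and the AP-1 site (TGANTCA), with N any base. Of 35116 start-site windows of this length, 3.13% held the first motif, 10.9% the second and 6.57% the third. The stretches of 30 bases that hold a match are shown 5′ to 3′ on the gene's strand, with the matched bases in capitals.

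CHAC1 (chr15:40953251-40953280, plus strand): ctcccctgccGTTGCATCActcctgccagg
GCLM (chr1:93909445-93909474, minus strand): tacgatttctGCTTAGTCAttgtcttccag
GSTP1 (chr11:67583736-67583765, plus strand): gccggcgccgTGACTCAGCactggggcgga

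CHAC1, which fell, held the composite element, read on the opposite strand, from −210 to −202 relative to the start. GCLM, which fell slightly, held the antioxidant core on the opposite strand from −34 to −26. GSTP1, which rose most, held the antioxidant core from −66 to −58, and its first bases are also an AP-1 match, from −66 to −60. No window of GCLC, CHAC2 or GGT7 held these letters. The CHAC1 and GSTP1 matches lie within exons of longer GENCODE transcripts of the same genes, whereas the GCLM match lies before the annotated gene except for 1 base. A match is a description of the sequence, and binding was not measured.

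The factors' own transcripts moved as follows. ATF4, the effector of the ISR, stood at 2300, 2364 and 2246 CPM in MGO and 390, 371 and 388 in Control libraries. It rose by 2.59 (SE 0.06, edgeR adjusted p = 2.06e-11), while SLC7A11 and CHAC1 were lowered in the same libraries. Targets of ATF4 as a set were not examined, and SLC3A2, the partner of SLC7A11, rose by 2.85 in these libraries. NFE2L2 rose by 1.49 (SE 0.06), from 70.7 ± 1.36 to 198 ± 11.5 CPM (SD, n = 3). BACH1, a repressor at antioxidant response elements, rose by 0.66 (SE 0.09), a call that library size alone took away (0.14, adjusted p = 0.211). With the length trend removed BACH1 rose by 1.79 (SE 0.07). KEAP1, which targets NRF2 for degradation, did not pass the threshold at 0.17 (SE 0.08, adjusted p = 0.061) and changed sign under library size alone (−0.36, adjusted p = 0.00062). KEAP1 passed without MGO replicate 1 (0.26, adjusted p = 0.00019). The largest rise on the regulator list was that of MAFF, a small Maf partner of NRF2, at 5.56 (SE 0.09), and the largest fall was that of NFE2L1 at −0.96 (SE 0.06), which stood at −0.14 with the length trend removed. In all, 6 of 9 regulators rose and 2 fell (5 and 3 under library size alone).

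Other genes of the pathway were taken from 8 lists of 84 genes, of which 67 were tested. Of these, 44 rose, 15 fell and 8 did not pass, and the median log2 fold change was 0.94. With library size alone 37 rose and 24 fell, so raised genes made up 60.7% of the calls in place of 74.6%. The shares over all tested genes under the same settings were 30.6% and 48.9%. The lists were chosen with earlier results known, so these counts describe the pathway and test nothing about it.

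Cystine and cysteine supply divided, with 5 of 8 tested genes raised and 2 lowered (4 and 4 under library size alone). Besides SLC3A2, the largest rise, the largest fall was that of SLC1A1, a carrier of glutamate and cysteine, with 4.26 ± 0.148 CPM in MGO and 9.78 ± 0.330 in Control (−1.20 on the log2 scale, SE 0.08, edgeR adjusted p = 1.95e-08). With the length trend removed SLC1A1 stood at −0.60, and SLC7A9, another cystine transporter gene, with under 1 CPM in each library, then stood lower, at −0.95. The transferases other than GSTP1 rose with it in 11 of 12 tested cases and none fell, with a median of 1.08. Under library size alone 9 rose and 1 fell. With the length trend removed 9 rose and 0 fell, with a median of 0.80. The median length on this list was 962.5 nt, and 57.8% of all genes between 811 and 996 nt were raised. MGST3, a microsomal transferase, led them at 1.62 (SE 0.07), from 37.1 ± 0.974 to 114 ± 8.96 CPM. The cytosolic transferases of the mu and theta classes have near-identical copies, so their counts are uncertain, and GSTM1 was listed at 0 in every library, which is not read as absent expression.

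Glutathione peroxidases and PRDX6 rose in 4 of 6 tested cases and 1 fell. GPX1, which reduces hydrogen peroxide with glutathione, rose by 1.70 (SE 0.10, edgeR adjusted p = 6.39e-09), from 41.7 ± 0.271 to 135 ± 21.1 CPM. GPX8, a peroxidase of the endoplasmic reticulum, fell to 20.2 ± 1.80 from 44.2 ± 0.835 CPM (log2 fold change −1.13, SE 0.07), with a typical transcript of 1411 nt. Library size alone and removal of the length trend gave the same counts of raised and lowered genes. The median length on this list was 1224 nt, and 57.6% of all genes between 1210 and 1436 nt were raised.

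On the list of glutathione-dependent aldehyde clearance 5 of 5 genes rose, with a median of 1.21. The median length on this list was 1283.5 nt, and 57.6% of all genes between 1210 and 1436 nt were raised. With the length trend removed 5 rose and 0 fell, with a median of 0.90. ETHE1, a mitochondrial dioxygenase whose known substrate is glutathione persulfide and not an aldehyde, had the largest rise at 1.92 (SE 0.09, edgeR adjusted p = 1.39e-09). Reads of GLO1, which is deleted in every library per the labels, rose by 1.45 (SE 0.06). Which part of the gene is deleted is not stated, so this rise is not read as more working enzyme. Under library size alone 4 of the 5 passed the threshold, all raised.

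Of 11 tested genes of glutathione breakdown and transport, 4 rose and 5 fell (2 and 8 under library size alone). With the length trend removed 6 rose and 4 fell, and the median turned from −0.32 to 0.26. The largest rise above 1 CPM was that of SLC25A39, which imports glutathione into mitochondria, from 177 ± 2.53 to 405 ± 39.0 CPM (log2 fold change 1.198, SE 0.07). ABCC2, an exporter of glutathione conjugates, fell from 2.13 ± 0.171 to 0.552 ± 0.133 CPM (−1.95, SE 0.17), beside like falls of ABCC5 (−1.93, SE 0.06) and ABCC4 (−1.92, SE 0.08), related exporters. With the length trend removed ABCC5 (−1.49) and ABCC4 (−1.27) stood lower than ABCC2 (−0.82), whose transcript has 5714 nt.

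**Figure D5:**
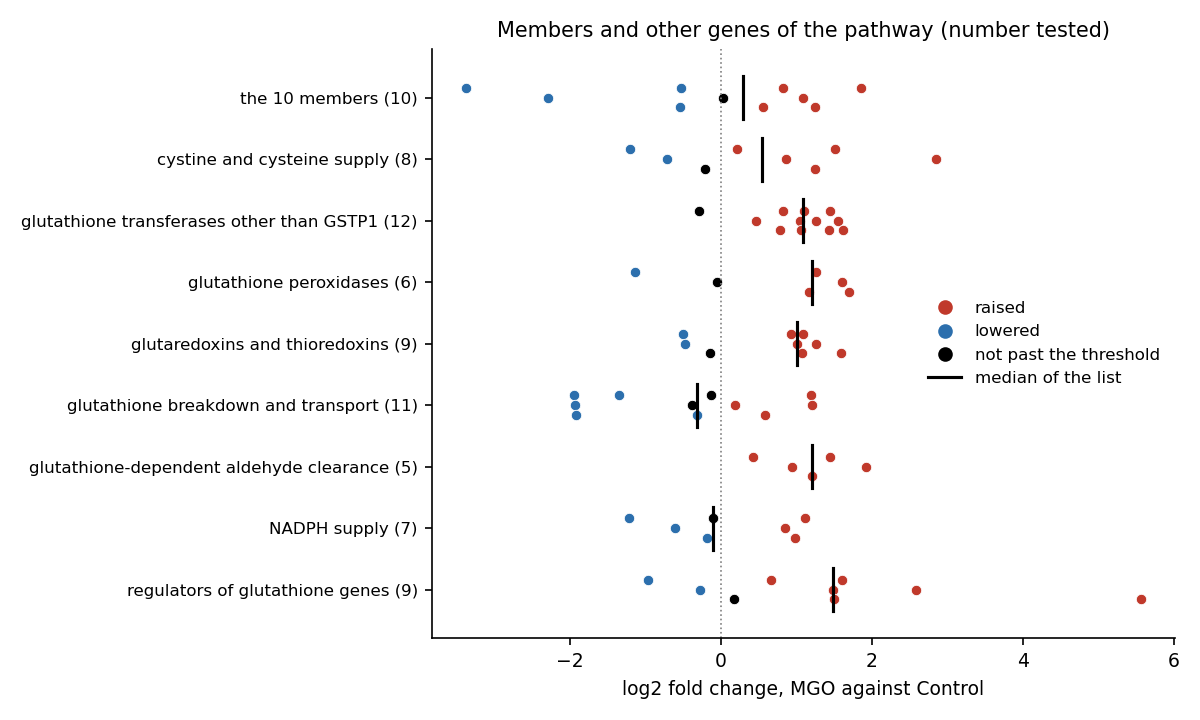
Log2 fold changes of MGO against Control for the 10 members and for the tested genes of 8 further lists of the pathway, with the number tested in brackets; colours give the call and vertical bars the list medians. The transferases and aldehyde clearance genes hold no lowered gene, and the members are spread from −3.37 to 1.86.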

How the data were processed

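Per the submitters' processing notes, Trim Galore 0.6.10, STAR 2.7.0a, featureCounts 2.0.6 and genome build hg38 were used by the authors to make the deposited raw counts per gene. No source used here gives the gene annotation, strand setting or handling of reads with several matches. Gene positions, types and transcript lengths (median of the basic transcripts, coding ones for coding genes) came from GENCODE release 29 on GRCh38, the same assembly, which matched 56685 of the 63643 rows. Promoter windows came from RefSeq.

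The test was edgeR's quasi-likelihood test (edgeR 4.0.16 in R 4.3.3) on all 6 libraries, after filterByExpr and TMM scaling, with group as the only term. The standard error (SE) was taken as the size of the log2 fold change over the square root of its F statistic. The steps were first tested on simulated data. The simulation changed few genes, in both directions and with no trend on length, so it could not check the scaling of these data. No pair of libraries within a group agreed to within counting error (lowest chi-square per degree of freedom 3.51). Each was therefore counted as 1 replicate, although such spread may be technical. Pairs with replicate 1 differed most in both groups. Their values were 28.1 and 21.3 against 3.51 in Control, and 45.7 and 50.4 against 15.4 in MGO. Alternatives were upper quartile scaling, library size alone, RLE size factors, no filter, a filter of 1 CPM in 3 libraries, DESeq2 1.42.0, limma-voom (limma 3.58.1), a replicate block, a test against a 1.2-fold change, leaving out each library, and removal of each library's trend on log transcript length (a spline with 5 degrees of freedom, as offsets). Named were the 10 members, SLC3A2, GLO1, ATF4, NFE2L2, KEAP1, BACH1, and the largest called rise and fall of each list at a mean of at least 1 CPM. The members and lists were chosen with earlier results of these data known.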

Additional observations from a re-analysis of the deposited data

How the results depend on the processing

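The counts of 5 raised and 4 lowered members were the same under RLE size factors, no filter, the 1 CPM filter, DESeq2, limma-voom, the test against a 1.2-fold change and without any 1 library (5 to 5 raised, 4 to 4 lowered). They became 4 and 5 under library size alone, 6 and 4 under upper quartile scaling, and 6 and 3 with the length trend removed. Over all genes, library size alone left 5673 raised in place of 8964 (12885 lowered in place of 9362). Among the other pathway genes it lowered 24 in place of 15. Signs reversed for GSR under library size alone (−0.50), with no filter (−0.0054) and with the length trend removed (−0.28), for GCLM with the length trend removed (0.15) and for KEAP1 under library size alone (−0.36). The cause was not tested, beyond what each alternative changes by its construction. KEAP1 passed the threshold under RLE size factors, upper quartile scaling and length trend removal.

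With the replicate block 5 members rose and 4 fell, as did 8869 and 9299 of all genes and 44 and 15 of the other pathway genes, and no gene among those named by rule changed its call. The numbers were treated as names, because the correlations of deviations between same-numbered libraries were 0.04, 0.02 and 0.01, and MGO replicate 2 correlated best with Control replicate 3. Leaving out 1 library gave 8684 to 9204 raised and 9062 to 9706 lowered genes, and 42 to 45 raised and 14 to 15 lowered other pathway genes. Among the members SLC7A11 and CHAC1 had the fewest reads, 149 to 243 per MGO library, and ABCC2 had 47 to 75.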

Other observations

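The thioredoxin system, which shares the reduction of protein disulphides with glutathione, moved in both directions. Of 9 tested glutaredoxin and thioredoxin genes, 6 rose and 2 fell (median log2 fold change 1.01, and 6 and 3 under library size alone). With the length trend removed 7 rose and 2 fell, with a median of 0.80. The median length on this list was 1564 nt, and 58.6% of all genes between 1437 and 1637 nt were raised. TXN, the cytosolic thioredoxin, had the largest rise, from 110 ± 9.07 to 330 ± 16.3 CPM (SD, n = 3; log2 fold change 1.59, SE 0.07). TXNRD3, a thioredoxin-glutathione reductase, had the largest fall, from 11.2 ± 0.463 to 7.95 ± 0.314 CPM (−0.50, SE 0.07). TXNRD1, the cytosolic reductase, named after its values were seen, stood at 142 ± 12.8 CPM in MGO and 198 ± 6.23 in Control (−0.48, SE 0.07), and at 0.17 with the length trend removed.

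NADPH supply, on which GSR depends, moved both ways, with 3 of 7 genes raised and 3 lowered. IDH2, the mitochondrial isocitrate dehydrogenase, stood at 135 ± 13.6 CPM in MGO and 62.4 ± 1.05 in Control (raised by 1.12, SE 0.08, edgeR adjusted p = 3.05e-08). NNT, the transhydrogenase of the inner mitochondrial membrane, fell from 98.6 ± 3.47 to 42.5 ± 2.66 CPM (−1.22, SE 0.07, adjusted p = 4.09e-09), and its change was −0.42 with the length trend removed. The median of the list was −0.10, and 0.08 under upper quartile scaling and 0.31 with the length trend removed, where 5 rose and 2 fell.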
